A study of Mus musculus with 6 samples.

Results

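The constitutive proteasome genes described here are 34 listed genes that encode the 20S core particle and the 19S regulatory particle of the 26S proteasome, with the inducible immunoproteasome subunits left out. They were taken from a gene list by symbol and not by their signal, and 33 of the 34 were measured among the 19505 genes with a named probe set. Psmb5, the core subunit with chymotrypsin-like activity, had no probe set under its symbol and was not analysed here. By their known places, 14 listed genes encode the core (13 measured), 9 the base of the 19S particle with the ubiquitin receptor Psmd4, and 8 its lid. The remaining 3, Psmd5, Psmd9 and Psmd10, are named as proteasome subunits but encode chaperones that assemble the base and leave the finished particle, so they were described apart.

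Signals were read on Affymetrix arrays from total RNA of small intestinal crypts of C57bl/6 mice, on 1 array for each of 6 samples. The 3 CSN8fl/fl samples came from mice with a loxP-flanked Cops8 gene, which encodes a subunit of the COP9 signalosome. The 3 CSN8ΔIEC samples came from mice taken, from the name of the genotype, to lack that gene in intestinal epithelial cells; the labels do not name the Cre line that drives the deletion, and neither genotype received a treatment that the labels name. In each genotype, 2 samples (replicates 1 and 2) carry the labels female and 16 weeks, and the third carries the labels male and 10 weeks, so effects of labelled sex and age cannot be told apart. The labels call the samples biological replicates without saying that each is a separate mouse or whether mice were pooled. The spread among the 3 samples a genotype may therefore in part be technical. The p-values rest on this spread after moderation with that of all genes.

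The proteasome degrades proteins that carry ubiquitin chains. Its core is a barrel of stacked α and β rings with the proteolytic sites inside, its base is a ring of ATPases with scaffold proteins that unfolds the substrate and opens the barrel, and its lid removes the ubiquitin before the substrate enters. Each lid subunit of the PCI and MPN kinds has a related counterpart in the COP9 signalosome, which removes NEDD8 from cullin-RING ubiquitin ligases, the enzymes that mark many proteasome substrates. In mammalian cells, the subunit genes are raised together by the transcription factor NFE2L1 when proteasome activity falls short.

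Markers of the labelled tissue were present on all arrays, with mean log2 levels over 10 Paneth cell genes of 12.42 to 12.72 in CSN8fl/fl and 10.49 to 11.35 in CSN8ΔIEC, and over 8 intestinal stem cell genes of 8.36 to 8.89 and 8.78 to 9.11. The Paneth cell levels of the genotypes did not overlap: 6 of the 10 genes fell in CSN8ΔIEC past the threshold used below for proteasome genes and 0 rose, with a median log2 difference of −1.44, or −1.44 without CSN8fl/fl replicate 3, and the part of this in the proteasome signals was not tested. Arrays have no read depth, and their number limits the precision. Array medians over all genes lay within 6.85 to 6.88 on the log2 scale. The array of CSN8fl/fl replicate 3 stood apart, with Pearson correlations across all genes of 0.976 to 0.986 with the other 5 arrays, and comparisons of proteasome genes are given with and without it. Cops8 itself, the targeted gene, was at 8.26, 8.22 and 8.10 in CSN8fl/fl replicates 1 to 3 and at 7.68, 7.61 and 7.77 in CSN8ΔIEC. Its values did not overlap, but the log2 difference of −0.50 ± 0.11 (SE) did not pass the threshold (adjusted p = 0.0865, and 0.0558 to 0.293 over the alternatives). No source used here says whether the Cops8 probes fall inside the deleted sequence, so these values were not taken as a check of the deletion.

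The comparison of CSN8ΔIEC with CSN8fl/fl crypts asked whether RNA of the proteasome genes differed where the COP9 signalosome gene was targeted. No proteasome gene was called different between the genotypes. With so small a share of all genes called, this count does not set the proteasome genes apart. None of the 33 passed the threshold of an adjusted p of 0.05 in limma's moderated linear model, in either direction, where 1.08% of all genes did (210 of 19505). At an unadjusted p under 0.05 there were 2 proteasome genes, Psma3 and Psmd5, both higher in CSN8ΔIEC, where 15% of all genes were called. Adjusted p-values of the 33 ran from 0.279 for Psmd5 to 0.994 for Psmd4. The proteasome count was also 0 without any 1 of the 6 arrays. The 210 genes were 109 when CSN8fl/fl replicate 2 was left out. They were 41, 122 and 114 when each CSN8ΔIEC array was left out in the order of its number.

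The differences were small and almost all above 0. They ran from −0.070 for Psmd10 to 0.35 for Psma3, with a median of 0.13 over the 33 genes, or 1.10-fold, beside −0.011 over all genes. In 31 of the 33 genes the difference was above 0, as it was in 48.2% of all genes, and Psmd4, just below 0, and Psmd10 were the exceptions, but Psmd4 turned to 0.022 when each array was centred on its median and to 0.012, with Psmd9 at −0.003, when quantile normalisation was run again. The upper ends of the 95% intervals reached at most 0.70, a 1.63-fold increase, for Psma6, and the lower ends reached at most −0.37, a 1.29-fold decrease, for Psmd10. Each interval is for a single gene from all arrays, and the intervals do not hold jointly, so larger changes are not excluded. Without CSN8fl/fl replicate 2 the difference of Psma6 was 0.45 ± 0.17 (SE). In 8 genes the 3 CSN8ΔIEC values all lay above the 3 CSN8fl/fl values, which was so in 10.7% of all genes, and in 0 genes did they all lie below, which was so in 11.7%. The 8 were Psma1, Psma3 and Psma6 of the core, Psmd2 of the base, Psmd6, Psmd7 and Psmd12 of the lid, and Psmd5; without CSN8fl/fl replicate 2 there were 19, beside 16.5% of all genes. Without CSN8ΔIEC replicate 2 there were 12 (16.1%), without CSN8ΔIEC replicate 3 there were 11 (14.8%), and without CSN8fl/fl replicate 1 or CSN8ΔIEC replicate 1 there were 8 (16.5% and 14%).

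**Figure D1:**
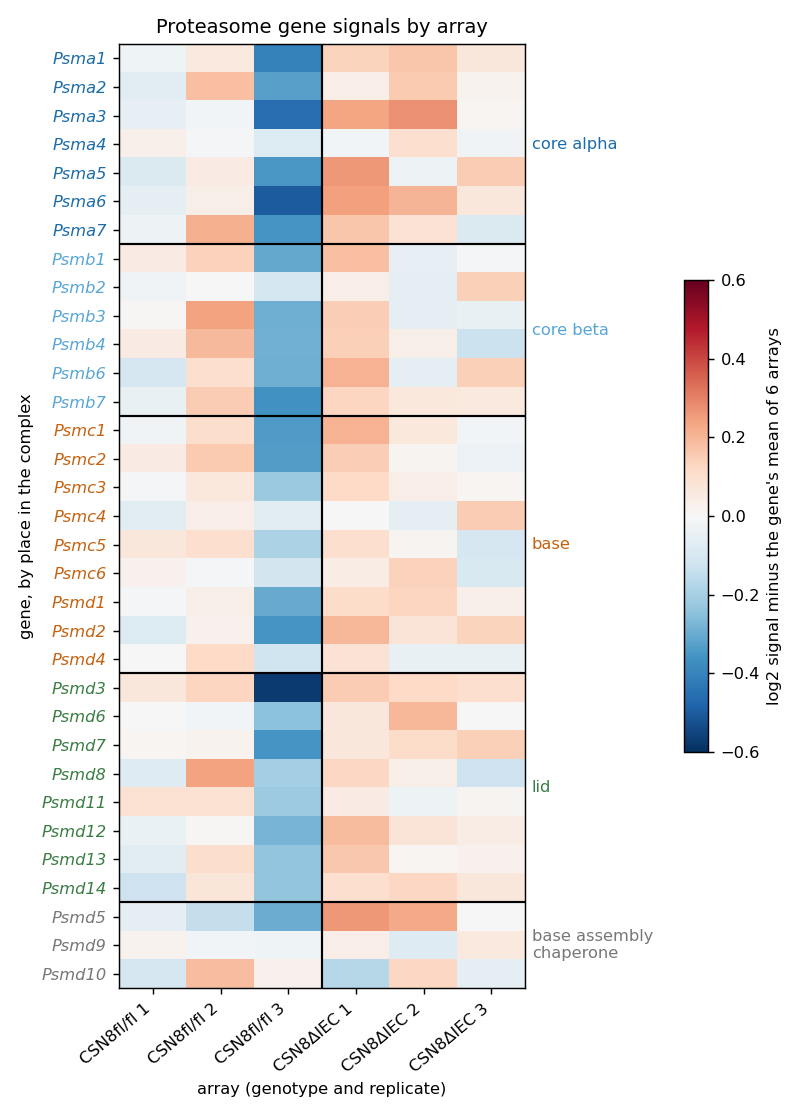
Each row is 1 proteasome gene and each column 1 array, and the colour gives the log2 signal minus that gene's mean over the 6 arrays, from −0.6 (blue) to 0.6 (red). Rows are grouped by place in the complex; the column of CSN8fl/fl replicate 3 is the lowest in 31 of the 33 rows.

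Most of this offset was lost without 1 array. CSN8fl/fl replicate 3 had the lowest of the 6 signals in 31 of the 33 genes, where it was the lowest in 25.7% of all genes, and these were all 13 measured core genes, all 9 base genes, all 8 lid genes and Psmd5. It was the highest in 0 of the 33, and in 23.8% of all genes. The signals of that array lay at a median of −0.31 relative to the mean of CSN8fl/fl replicates 1 and 2 over the 33 genes, at −0.41 in the core and at −0.27 in both base and lid. The other array labelled male, CSN8ΔIEC replicate 3, lay at a median of −0.076 relative to its replicates 1 and 2. Without CSN8fl/fl replicate 3 the median difference between the genotypes fell from 0.13 to 0.032, beside −0.011 over all genes in that fit. The difference was then above 0 in 23 genes, where 48% of all genes were above 0. It was lower than with all arrays in 33 of 33 genes. This follows from that array lying below the mean of CSN8fl/fl replicates 1 and 2 in each of them. Again 8 genes lay higher in CSN8ΔIEC without overlap, beside 15% of all genes, and 1, Psmd11, lay lower, beside 16.8% of all genes. None passed the threshold (0.774% of all genes did) or an unadjusted p under 0.05 (13.3%), and the smallest adjusted p was 0.433. Differences without that array ran from −0.11 for Psmb3 to 0.26 for Psmd5, and the 95% intervals stayed between −0.42 and 0.56, a 1.34-fold decrease and a 1.48-fold increase.

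Other genes moved with that array as well. Of 15 proliferation markers, 14 were measured and all 14 were lowest in CSN8fl/fl replicate 3, at a median of −0.79 relative to replicates 1 and 2 of the genotype, and their mean log2 level ran from 9.04 to 9.82 in CSN8fl/fl and from 10.04 to 10.08 in CSN8ΔIEC. The median genotype difference of the proliferation markers was 0.45, and 0.23 without that array. All 14 were then still above 0, beside 48% of all genes, and 11 lay higher in CSN8ΔIEC without overlap, beside 15%. With all arrays 0 of the 14 passed the threshold, beside 1.08% of all genes. Without that array it was also 0, beside 0.774%. Tuft cell markers went the other way on that array, with 9 of 10 measured and all 9 highest in it. Mean levels of the tuft cell markers were 7.68 to 9.02 in CSN8fl/fl and 6.42 to 6.62 in CSN8ΔIEC. B and plasma cell markers, 5 of 6 measured, were lowest in it in 4 of 5, at a median of −1.52 relative to replicates 1 and 2, with mean levels of 4.66 to 6.15 in CSN8fl/fl and 5.53 to 5.65 in CSN8ΔIEC. Enterocyte markers were highest in it in 7 of 10, at a median of 0.36 relative to those replicates (12.69 to 13.05 against 12.43 to 12.87). Intestinal stem cell markers were lowest in it in 6 of 8, and T cell and intraepithelial lymphocyte markers were highest in it in 8 of 9 (7.88 to 8.63 against 7.60 to 8.0). Their part in the proteasome signals was not tested. In bulk RNA of crypts, fewer cells of a type and less RNA per cell cannot be told apart. The spread of the proteasome genes within CSN8fl/fl, with a median SD of 0.20, was larger than that within CSN8ΔIEC, 0.095, and 26 of 33 genes had the larger SD in CSN8fl/fl, beside 62.3% of all genes.

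**Figure D2:**
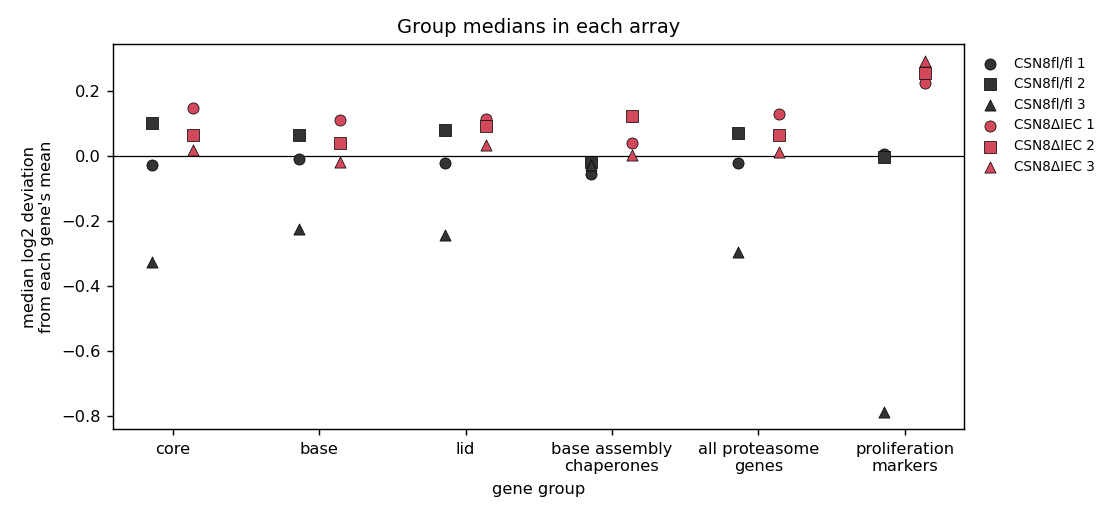
Each point is the median, over the genes of a group, of the log2 signal minus the gene's mean over the 6 arrays, with black symbols for CSN8fl/fl, red for CSN8ΔIEC and circles, squares and triangles for replicates 1, 2 and 3. The CSN8fl/fl replicate 3 array lies lowest in core (−0.33), base (−0.22), lid (−0.24) and the proliferation markers (−0.79), while the other 5 arrays lie between −0.028 and 0.15 in core, base and lid.

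Core particle genes had a median difference of 0.14, or 1.10-fold, with 13 of 13 differences above 0 and 0 past the threshold. Without CSN8fl/fl replicate 3 the median was 0.029 and 9 of 13 were above 0, without CSN8fl/fl replicate 2 the median was 0.27, and with array weights it was 0.076. The α subunits, which form the outer rings and the gate of the barrel, had a median of 0.25, and 0.11 without that array; the β subunits had 0.081 and −0.014. No test compared the 2 kinds of ring. Psma3 had the largest difference of all 33 genes. It was at 10.19, 10.23 and 9.79 in CSN8fl/fl replicates 1 to 3 and at 10.48, 10.52 and 10.25 in CSN8ΔIEC. Its lowest CSN8ΔIEC value was just above its highest CSN8fl/fl value, and the difference was 0.35 ± 0.15 (SE, adjusted p = 0.333), or 0.21 without CSN8fl/fl replicate 3. Psma6 was at 10.50, 10.59 and 10.06 in CSN8fl/fl and at 10.80, 10.76 and 10.62 in CSN8ΔIEC, a difference of 0.35 ± 0.16 (adjusted p = 0.345), or 0.18 without that array. These groups did not overlap either. Psma5 was at 9.75, 9.89 and 9.49 against 10.10, 9.81 and 9.99, with a difference of 0.26 (adjusted p = 0.443), or 0.15 without CSN8fl/fl replicate 3, and its groups overlapped through CSN8ΔIEC replicate 2. Psma4 had the smallest α difference, 0.041 and 0.0092 without that array, with all 6 signals between 11.33 and 11.51. The other α genes, Psma1, Psma2 and Psma7, differed by 0.25, 0.14 and 0.11, and by 0.11, 0.014 and −0.038 without it.

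Of the proteolytic β subunits, Psmb6, which carries the caspase-like activity, was at 10.49, 10.69 and 10.30 in CSN8fl/fl and at 10.80, 10.53 and 10.73 in CSN8ΔIEC. The groups overlapped, and the difference was 0.20 ± 0.14 (adjusted p = 0.553; 95% interval −0.13 to 0.52), or 0.097 without CSN8fl/fl replicate 3. Psmb7, which carries the trypsin-like activity, was at 10.69, 10.88 and 10.37 against 10.86, 10.79 and 10.79, with a difference of 0.17 ± 0.15 (adjusted p = 0.629). The CSN8ΔIEC values of Psmb7 were close to each other (SD 0.039) and inside the CSN8fl/fl range, and the difference was 0.029 without CSN8fl/fl replicate 3. Psmb2, a structural β subunit, was at 10.50, 10.52 and 10.42 against 10.56, 10.47 and 10.67, a difference of 0.085 (adjusted p = 0.768), or 0.053 without that array. Psmb4, with the smallest β difference, was at 10.41, 10.56 and 10.08 against 10.51, 10.40 and 10.24. That difference of 0.031 turned to −0.11 without CSN8fl/fl replicate 3, and Psmb3 and Psmb1 went from 0.032 and 0.077 to −0.11 and −0.056.

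**Figure D3:**
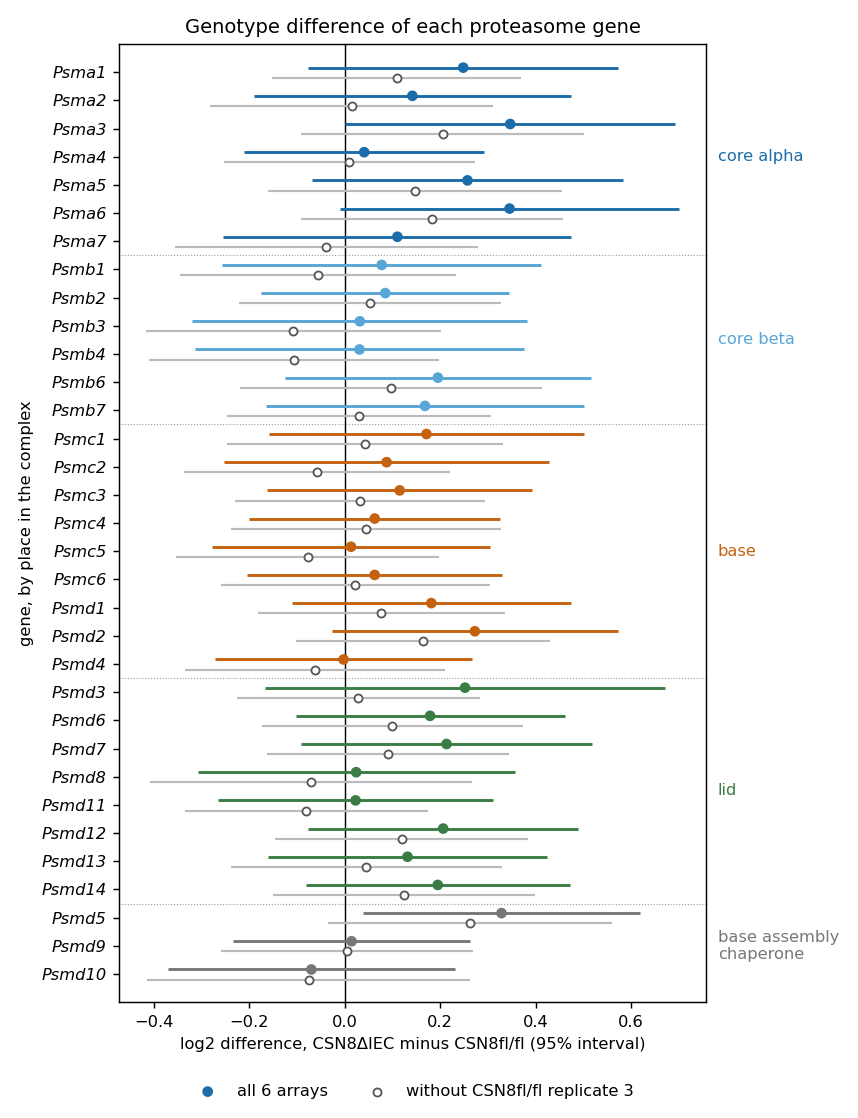
Filled points give each gene's log2 difference, CSN8ΔIEC minus CSN8fl/fl, from all 6 arrays with its 95% interval, and open points give it without CSN8fl/fl replicate 3. Each open point lies to the left of its filled point, and the filled-point intervals of all genes but Psma3 and Psmd5 include 0.

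Base genes had a median of 0.088, with 8 of 9 above 0 and 0 past the threshold, and 0.032 with 6 of 9 above 0 without CSN8fl/fl replicate 3. The base median was 0.18 without CSN8fl/fl replicate 2 and 0.054 with array weights. The scaffold subunit Psmd2, which docks ubiquitin-like domains, had the largest base difference. It was at 10.39, 10.50 and 10.12 in CSN8fl/fl and at 10.67, 10.55 and 10.61 in CSN8ΔIEC, a difference of 0.27 ± 0.13 (adjusted p = 0.379) without overlap, or 0.16 without CSN8fl/fl replicate 3. Psmd1, the other large scaffold, was at 10.39, 10.44 and 10.10 against 10.51, 10.53 and 10.43 and differed by 0.18 (adjusted p = 0.544), or by 0.077 without that array. Its groups overlapped only in the highest CSN8fl/fl value, 10.44, and the lowest CSN8ΔIEC value, 10.43. Psmc1, one of the ATPases that form the ring, was at 10.19, 10.32 and 9.87 against 10.42, 10.28 and 10.20, with a difference of 0.17 (adjusted p = 0.617), or 0.043 without that array. The other ATPase genes, Psmc2 to Psmc6, differed by 0.013 to 0.11, and by −0.078 to 0.044 without it. Psmd4, the receptor that captures ubiquitin chains between base and lid, was at 9.71, 9.83 and 9.59 in CSN8fl/fl and at 9.79, 9.66 and 9.66 in CSN8ΔIEC. Both genotypes had a mean of 9.71, and the 95% interval of their difference ran from −0.27 to 0.27; without CSN8fl/fl replicate 3 the difference was −0.063.

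Lid genes had a median of 0.19, with 8 of 8 above 0 and 0 past the threshold, and 0.068 with 6 of 8 above 0 without CSN8fl/fl replicate 3. The lid median was 0.24 without CSN8fl/fl replicate 2 and 0.14 with array weights. Psmd12, a scaffold subunit of the lid, was at 10.09, 10.14 and 9.85 in CSN8fl/fl and at 10.32, 10.21 and 10.17 in CSN8ΔIEC. These values did not overlap, and the difference was 0.21 ± 0.12 (adjusted p = 0.476), or 0.12 without CSN8fl/fl replicate 3. Psmd14, the metalloprotease that cuts ubiquitin from the substrate, was at 9.73, 9.93 and 9.62 against 9.96, 9.98 and 9.92. Its CSN8ΔIEC values were tightly grouped (SD 0.028), with CSN8fl/fl replicate 2 inside their range, and the difference was 0.19 ± 0.12 (adjusted p = 0.492), or 0.12 without CSN8fl/fl replicate 3. Psmd7, the inactive partner of Psmd14, was at 11.34, 11.35 and 10.98 against 11.40, 11.44 and 11.47, a difference of 0.21 ± 0.13 (adjusted p = 0.495) that was 0.090 without that array. Psmd3 showed the widest gap between the CSN8fl/fl arrays, with an SD of 0.39 against 0.026 in CSN8ΔIEC; its difference of 0.25 was 0.028 without CSN8fl/fl replicate 3. Psmd11, a lid scaffold known to promote assembly of the whole particle, was at 9.97, 9.97 and 9.66 against 9.93, 9.84 and 9.89, and its difference went from 0.023 to −0.081 without that array.

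Psmd8 is the lid counterpart of the subunit that Cops8 encodes. It was at 10.15, 10.47 and 10.02 in CSN8fl/fl and at 10.35, 10.26 and 10.10 in CSN8ΔIEC. The groups overlapped throughout, with a difference of 0.024 ± 0.15 (adjusted p = 0.954; 95% interval −0.31 to 0.36), while that of Cops8 had an interval of −0.76 to −0.24; without CSN8fl/fl replicate 3 the values were −0.071 and −0.55. The other COP9 signalosome genes are given beside their lid counterparts, first from all arrays and then without CSN8fl/fl replicate 3. Psmd14 and Cops5, the catalytic subunits of the lid and of the COP9 signalosome, differed by 0.19 and 0.24, and then by 0.12 and 0.15. Psmd12 and Cops4 differed by 0.21 and 0.22, and then by 0.12 and 0.16. Psmd7 and Cops6 differed by 0.21 and 0.20, and then by 0.090 and 0.017. Psmd13 differed by 0.13 and its counterparts Cops7a and Cops7b by 0.090 and 0.15, and then by 0.045, 0.080 and 0.11. Psmd6 and Gps1 differed by 0.18 and 0.38, and then by 0.099 and 0.30. In some pairs, and not in all, the distance between the genes changed without that array. Psmd3 and Cops3, at 0.25 and 0.035 with all arrays, were at 0.028 and −0.044 without it, and Psmd11 and Cops2, at 0.023 and 0.098, were at −0.081 and 0.054. Cops9, a small subunit of the COP9 signalosome with no lid counterpart among the pairs, differed by 0.021 (adjusted p = 0.955), and by −0.059 without CSN8fl/fl replicate 3. None of these genes passed the threshold, and the differences within pairs were not tested.

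**Figure D4:**
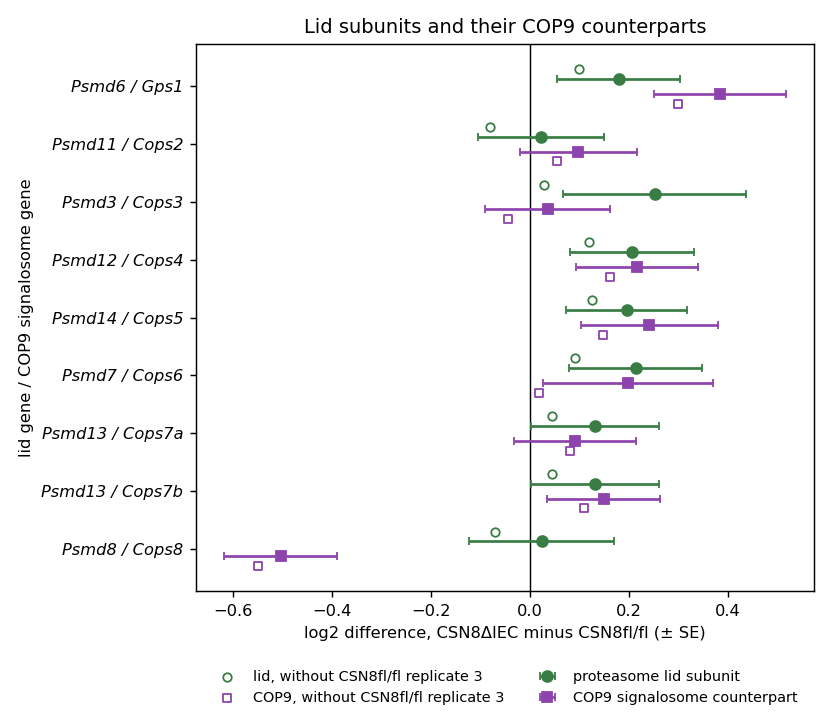
Each row pairs a proteasome lid gene (green circle) with its counterpart in the COP9 signalosome (purple square) and gives the log2 difference, CSN8ΔIEC minus CSN8fl/fl, with its SE from the fit of all 6 arrays; open symbols give the difference without CSN8fl/fl replicate 3. Cops8 at −0.50 lies apart from Psmd8 at 0.024, and the filled symbols of the other pairs lie between 0.023 and 0.38.

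The 3 base assembly chaperones went different ways, with a median difference of 0.014 and 0 past the threshold. Psmd5 had the smallest p of all 33 genes. It was at 8.61, 8.52 and 8.37 in CSN8fl/fl and at 8.92, 8.89 and 8.67 in CSN8ΔIEC, without overlap. Its difference of 0.33 ± 0.13 (adjusted p = 0.279; 0.215 to 0.576 over the alternatives) was 0.26 without CSN8fl/fl replicate 3 and 0.34 among the labelled females alone. Psmd9 was at 8.08, 8.04 and 8.03 against 8.10, 7.98 and 8.11, the narrowest CSN8fl/fl range of the 33 genes (SD 0.026), with a difference of 0.014 (adjusted p = 0.964), or 0.0046 without CSN8fl/fl replicate 3. Psmd10, known also as gankyrin, was at 8.95, 9.24 and 9.08 against 8.88, 9.18 and 8.99, and its difference of −0.070 (adjusted p = 0.837), or −0.076 without that array, had overlapping groups. CSN8fl/fl replicate 3 was the lowest array in Psmd5 and not in Psmd9 or Psmd10.

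Among the labelled females of 16 weeks alone, with 2 arrays a genotype, the median differences were 0.040 in the core, 0.055 in the base and 0.069 in the lid. Between the 2 labelled males of 10 weeks, 1 array a genotype and so without a test, they were 0.34, 0.24 and 0.28. The genotype difference was tested for a dependence on labelled sex and age with an interaction term in limma. It passed the threshold in 0 of the 33 genes and in 0% of all genes, with a smallest adjusted p of 0.447 among the 33, and 10.1% of all genes had an unadjusted p under 0.05. Psmd3 had the largest interaction value, a genotype difference 0.64 larger on the log2 scale between labelled males than between labelled females, and 30 of the 33 values were above 0. In this term the males come down to a single array of each genotype, one of them CSN8fl/fl replicate 3.

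Because NFE2L1 is known to raise the subunit genes together, their promoters were searched for an element that NFE2L1 and NFE2L2 read. RefSeq promoter windows of GRCm38.p6, from 250 bases before to 50 after a start, matched 28 of the 34 listed genes. The antioxidant response element was searched as TGANNNNGC and in the stricter form TGACNNNGC, on both strands, where each match to the second is also a match to the first. The wider form was in the windows of 16 of 28 proteasome genes (57.1%), and in 45.0% of the 27025 genes in the table. The stricter form was in 5 of 28 (17.9%), Psmb5, Psmb6, Psmc6, Psmd9 and Psmd12, and in 14% of all genes. CCAAT, the box read by NF-Y, was in 11 of 28 (39.3%) and in 41.1% of all genes. The 250 bases before the start are shown 5′ to 3′ for 3 of the 5, in lower case with the stricter match in capitals, and for Psmd5, the gene with the smallest p, with the wider match in capitals. Psmb5 was not measured and is not shown, nor is Psmb6, where 33 of the bases lie within the gene model; of the bases shown, 1 of Psmc6 and 3 of Psmd5 lie within theirs. The Psmd12 bases are chr11:107479278-107479527 on the plus strand, those of Psmc6 chr14:45329574-45329823 on the plus strand, those of Psmd9 chr5:123227940-123228189 on the plus strand and those of Psmd5 chr2:34870963-34871212 on the minus strand.
Psmd12: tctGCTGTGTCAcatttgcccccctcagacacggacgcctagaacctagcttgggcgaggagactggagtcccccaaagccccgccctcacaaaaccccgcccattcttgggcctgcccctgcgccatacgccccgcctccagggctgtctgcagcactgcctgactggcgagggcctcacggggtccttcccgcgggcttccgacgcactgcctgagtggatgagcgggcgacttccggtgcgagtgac
Psmc6: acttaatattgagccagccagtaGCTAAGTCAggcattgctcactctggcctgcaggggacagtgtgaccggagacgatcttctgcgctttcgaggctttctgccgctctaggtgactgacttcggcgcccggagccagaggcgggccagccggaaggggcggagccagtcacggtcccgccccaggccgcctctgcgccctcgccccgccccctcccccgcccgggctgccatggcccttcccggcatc
Psmd9: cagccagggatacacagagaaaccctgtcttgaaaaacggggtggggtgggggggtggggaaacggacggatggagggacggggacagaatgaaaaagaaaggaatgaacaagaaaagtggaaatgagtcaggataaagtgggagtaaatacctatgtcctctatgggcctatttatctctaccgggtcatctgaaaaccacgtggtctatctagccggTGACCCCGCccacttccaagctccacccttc
Psmd5: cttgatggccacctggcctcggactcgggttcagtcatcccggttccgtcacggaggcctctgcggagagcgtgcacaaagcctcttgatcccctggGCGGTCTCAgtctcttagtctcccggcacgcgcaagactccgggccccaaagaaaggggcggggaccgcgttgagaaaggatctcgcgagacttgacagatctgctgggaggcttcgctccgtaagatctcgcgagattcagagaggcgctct
In capitals, Psmd9 holds the stricter form as written, Psmc6 and Psmd12 hold it on the other strand, far from the start, and Psmd5 holds the wider form on the other strand. The measured genes with the stricter form differed by 0.20 (Psmb6), 0.063 (Psmc6), 0.014 (Psmd9) and 0.21 (Psmd12). Psma3, with the largest difference, had no match to either form in its window. A match to these letters is a description of the window and not a site that was measured.

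Other genes of the pathway were counted from lists made by known function. Of 30 measured genes outside the COP9 signalosome list, 0 passed the threshold in limma, 4 had an unadjusted p under 0.05, beside 15% of all genes, and 26 had a difference above 0, beside 48.2% of all genes, with a median of 0.11, or 0.0035 without CSN8fl/fl replicate 3. The 4 below 0 were Psmf1, Psmb11, Ngly1 and Ubqln2. Usp14, a deubiquitinase that binds the base and trims ubiquitin chains, had the largest difference. It was at 8.10, 8.0 and 7.68 in CSN8fl/fl and at 8.50, 8.41 and 8.47 in CSN8ΔIEC, without overlap, and its difference of 0.53 ± 0.14 (adjusted p = 0.119; 0.0864 to 0.368 over the alternatives) was 0.41 without CSN8fl/fl replicate 3. The other deubiquitinase of the base, Uchl5, differed by 0.21, and Sem1, a small subunit of the 19S particle, had the same mean of 10.36 in both genotypes (95% interval of the difference −0.31 to 0.31). Without CSN8fl/fl replicate 3, Uchl5 and Sem1 differed by 0.063 and −0.077. Of the inducible subunits that replace the proteolytic β subunits, Psmb8 and Psmb9 differed by 0.45 and 0.43 (adjusted p = 0.152 and 0.162), and by 0.39 and 0.42 without CSN8fl/fl replicate 3. The third inducible subunit, Psmb10, differed by 0.033 (adjusted p = 0.918), and by −0.019 without that array. Psmb11, the β subunit of the thymus, was at a mean of 5.30 in CSN8fl/fl and 5.15 in CSN8ΔIEC, a difference of −0.15 (adjusted p = 0.605). Psme3, the nuclear activator of the core, differed by 0.35 (adjusted p = 0.242), and Psme2, a subunit of another activator, by 0.25. Without CSN8fl/fl replicate 3 they differed by 0.29 and 0.17. The other activator genes, Psme1 and Psme4, differed by 0.032 and 0.022, and by −0.050 and 0.037 without that array. Psmf1, an inhibitor of the core, differed by −0.042 (adjusted p = 0.888).

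The core assembly chaperones had a median of 0.10, with Psmg2 at 0.24, Psmg1 at 0.17 and Psmg3 at 0.10. Without CSN8fl/fl replicate 3, the lowest array in 5 of 5, the median was −0.050. Psmg2, Psmg1 and Psmg3 were then at 0.12, 0.036 and −0.055. Nfe2l1, which encodes the factor that raises the subunit genes, was at 10.49, 10.51 and 10.20 in CSN8fl/fl and at 10.76, 10.55 and 10.75 in CSN8ΔIEC. Its values did not overlap, and the difference was 0.28 ± 0.13 (adjusted p = 0.364), or 0.18 without CSN8fl/fl replicate 3. Nfe2l2, which encodes NRF2, the regulator of the oxidant response, was at 9.35, 9.20 and 9.06 against 9.44, 9.17 and 9.09, a difference of 0.031 with overlapping groups (adjusted p = 0.936). Ngly1, the glycanase that NFE2L1 needs for activity, differed by −0.28 and Vcp, the segregase that extracts it from the ER membrane, by 0.23 (adjusted p = 0.367 and 0.505). Without CSN8fl/fl replicate 3, Ngly1 and Vcp differed by −0.19 and 0.080. Of the substrate delivery genes, 6 of 7 had a difference above 0, with Ubqln4 and Ubqln1, shuttle factors that carry ubiquitinated proteins, at 0.11 and 0.15 and Nploc4, a cofactor of Vcp, at 0.13. Without CSN8fl/fl replicate 3, 2 of 7 were above 0, with Ubqln4 at 0.13, Nploc4 at 0.020 and Ubqln1 at −0.021. Ubqln2, the gene below 0 with all arrays, then went from −0.17 to −0.42. Uba6, a ubiquitin-activating enzyme and the 1 gene analysed here of 6 listed for ubiquitin and its activation, differed by 0.16 (adjusted p = 0.637). Without CSN8fl/fl replicate 3, Uba6 differed by 0.054.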

How the data were processed

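Total RNA of small intestinal crypts from 3 CSN8fl/fl and 3 CSN8ΔIEC samples was hybridised to 1 array each. The authors deposited log2 signals per probe set, made with RMA and Partek 6.6 per the submitters' processing notes, which give no settings. Of 22206 probe sets, 19572 had 1 symbol in the platform annotation, and 2634 are unnamed here; the gene IDs of all 19572 were found in RefSeq (GRCm38.p6). Of genes with several probe sets (55) the one with the highest mean was used, leaving 19505. Each proteasome gene had 1 probe set.

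CSN8ΔIEC minus CSN8fl/fl was fitted on all genes with lmFit and eBayes of limma 3.58.1 under R 4.3.3 (8.85 degrees of freedom after moderation), two-sided, with Benjamini-Hochberg adjustment over all genes and a threshold of 0.05. The fit was tested on simulated data. A second model added labelled sex and age and their interaction with genotype. Alternatives left out each array or replicate 3 of both genotypes, added the replicate number or labelled sex and age as a block, removed the dimmest genes by mean signal (log2 cut 5.01), centred arrays, repeated quantile normalisation, averaged probe sets, used trend and robust moderation, or weighted arrays. Values are log2 signals, errors of differences are SE, and quantities given for lists are counts and medians, with no test of a list. Same-numbered replicates deviated together with correlations of 0.117, −0.024 and 0.038, so the numbers were not taken as pairs. Genes named with values in each sample are the catalytic subunits, Psmd14, Psmd4, Psmd8, the assembly chaperones, Cops8 and, in each group, the 3 with the smallest p and the lowest difference; from each pathway list up to 3 with the smallest p, Nfe2l1, Nfe2l2 and every COP9 signalosome subunit. The genes and lists were chosen with earlier results of these data known. Psmd3, Psmb3, Psmb1, Ubqln2, Psme1, Psme4 and single values named beside these were added after their values were seen.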

Additional observations from a re-analysis of the deposited data

How the results depend on the processing

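The count of proteasome genes past the threshold was 0 under every alternative run, and none of the 33 differences passed it (smallest adjusted p from limma 0.211). Leaving out 1 array took the count of all genes past the threshold, 210, to between 41 and 228, that of proteasome genes higher in CSN8ΔIEC without overlap, 8, to between 8 and 19 (10.7% of all genes with all arrays, and 16.5% in the alternative with 19), and the median over the 33 genes, 0.13, to between 0.032 and 0.22. Among the labelled females alone 97 genes passed, and Psmb1 was at −0.031, Psmb3 at −0.078, Psmb4 at −0.034, Psmc2 at −0.019, Psmc4 at −0.016, Psmc5 at −0.025, Psmd8 at −0.0024, Psmd9 at −0.02, Psmd11 at −0.082, Psmg3 at −0.074 and Sem1 at −0.033. With the replicate block there were 202 genes and 0 proteasome genes, and the block changed no other call. Among the labelled males alone, an alternative added after the data were seen, the medians were 0.34 in the core, 0.24 in the base and 0.29 over all 33 genes. Some genes turned sign, and not only those near 0. Among them were Psma7 and Ubqln1, with differences of 0.11 and 0.15 from all arrays. When 1 array was left out, the ranges were −0.071 to 0.15 for Psmd8, −0.063 to 0.057 for Psmd4, −0.15 to 0.0043 for Psmd10, −0.038 to 0.25 for Psma7, −0.056 to 0.17 for Psmb1, −0.11 to 0.16 for Psmb3, −0.11 to 0.14 for Psmb4, −0.058 to 0.19 for Psmc2, −0.078 to 0.066 for Psmc5, −0.081 to 0.074 for Psmd11, −0.011 to 0.056 for Psmd9, −0.044 to 0.083 for Cops3, −0.074 to 0.10 for Nfe2l2, −0.055 to 0.26 for Psmg3, −0.067 to 0.0006 for Psmf1, −0.092 to 0.070 for Sem1, −0.021 to 0.25 for Ubqln1 and −0.059 to 0.11 for Cops9. With array weights, Psmb3 was −0.015, Psmb4 −0.019, Psmc5 −0.021, Psmd8 −0.0032, Psmd11 −0.024, Sem1 −0.0099 and Cops9 −0.0048. Psmd4 was 0.022 with arrays centred on their medians and 0.012 with quantile normalisation run again, which put Psmd9 at −0.003. The cause was not tested. Signals of the 33 genes lay between 7.98 and 11.51 and the highest on any array was 14.1; 3 arrays a genotype set the width of the intervals.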
